A study of Homo sapiens with 34 samples.

Results

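The 3 samples of CD43+/CD45+ cells sorted on day 16 were compared with the 3 samples of CD43+ cells sorted on day 9, that is, 6 of the 34 samples of the series. The 6 samples were picked by their labels, and all genes of the table were considered. Earlier results of these data were known when the comparison and the gene lists were chosen. All samples came from H1, an established human embryonic stem cell line, so every replicate has the same genetic background. The cells were differentiated as EBs (embryoid bodies) attached to collagen IV, first with BMP4 and VEGF and then with VEGF alone, and no haematopoietic cytokine was added. The methods of the study call the 3 replicates of each population independent and biological. The 6 samples of CD43- cells of the same days (CD43-CD45- on day 16) served as the background. The day 12 samples enter no comparison here.

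CD43 (leukosialin, encoded by SPN) is among the first surface markers by which blood cells that form from human pluripotent stem cells are told from endothelial and mesenchymal cells. The first wave of blood in the human conceptus is rich in large erythroid cells with embryonic globins, in megakaryocytes and in macrophages. Later progenitors give rise to granulocytes, monocytes and lymphocytes, and CD45 (PTPRC), a membrane phosphatase of white blood cells, is gained on the way.

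The day 16 label names CD45 beside CD43 and the day 9 label does not. Whether the day 16 cells had to carry both antigens or either of them is not stated, and time and gate cannot be told apart in this comparison. SPN itself, the gene of the sorted antigen, stood at 9460, 8946 and 9202 on day 9 and at 2870, 2796 and 2338 on day 16. The groups did not overlap, as was so in 65.3% of all genes tested. The log2 fold change of -1.79 ± 0.37 (SE, adjusted p = 0.000163, limma) was below the 4-fold limit used for a call. In CD43- cells SPN stood between 18 and 32 on day 9 and between 84 and 328 on day 16. PTPRC stood at 749, 634 and 698 on day 9 and at 12014, 10084 and 15868 on day 16, in a gene whose product the day 16 label names (log2 fold change 4.17 ± 0.92). These values are normalised tag counts, deposited as whole numbers. Sorted by size they were the same in all 34 samples, with 90700 as the highest value. GC content was corrected for first, so a value is close to a rank among genes of like GC content. Several genes of a sample can share the highest value. The sequencing depth cannot be read from these values, so that every error given rests on replicate samples. Levels were not compared between genes, because the values are not per transcript length. In bulk samples, fewer cells of a type and less RNA per cell cannot be told apart.

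Replicates were close to each other. Across genes, which are not independent, the correlation of log2 values was 0.980 to 0.983 between day 9 replicates, 0.973 to 0.980 between day 16 replicates and 0.879 to 0.896 between the days. On day 9, replicate 2 was the lowest in 25 of 30 erythroid genes, and replicate 3 was the highest in 19 of 20 mesenchymal genes. On day 16, replicate 3 was the highest in 26 of 29 macrophage genes and in 20 of 21 neutrophil maturation genes, and the lowest in all 22 megakaryocyte genes and in 21 of 30 erythroid genes.

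Of 19788 genes tested, 1547 (7.82%) were higher and 1231 (6.22%) lower on day 16, which is 14.0% of the genes, at an adjusted p below 0.05 and a fold change above 4 (limma, Benjamini-Hochberg). The median log2 fold change over all genes was -0.12. With median-of-ratios scaling it was 0.04, with 1745 genes higher and 976 lower. The values of day 9 and day 16 did not overlap in 1518 of the genes that rose and in 1173 of those that fell, while 65.3% of all genes tested had values that did not overlap, a much wider class than the calls. Among the called genes, 1295 of those that rose and 945 of those that fell were protein-coding. In CD43- cells 9.18% of genes passed the same limits, 965 of them higher (4.88%) and 851 lower (4.30%). Both populations rose in 429 genes, which were 27.7% of the rises in CD43+ cells and 44.5% of those in CD43- cells. Both fell in 266 genes, 21.6% and 31.3% of the falls. The change itself differed between the populations in 11.7% of genes, being more positive in CD43+ cells in 1288 (6.51%) and more negative in 1019 (5.15%). Of the rises in CD43+ cells, 794 were also larger than the change in CD43- cells by this test, and 737 were not called either way.

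**Figure D1:**
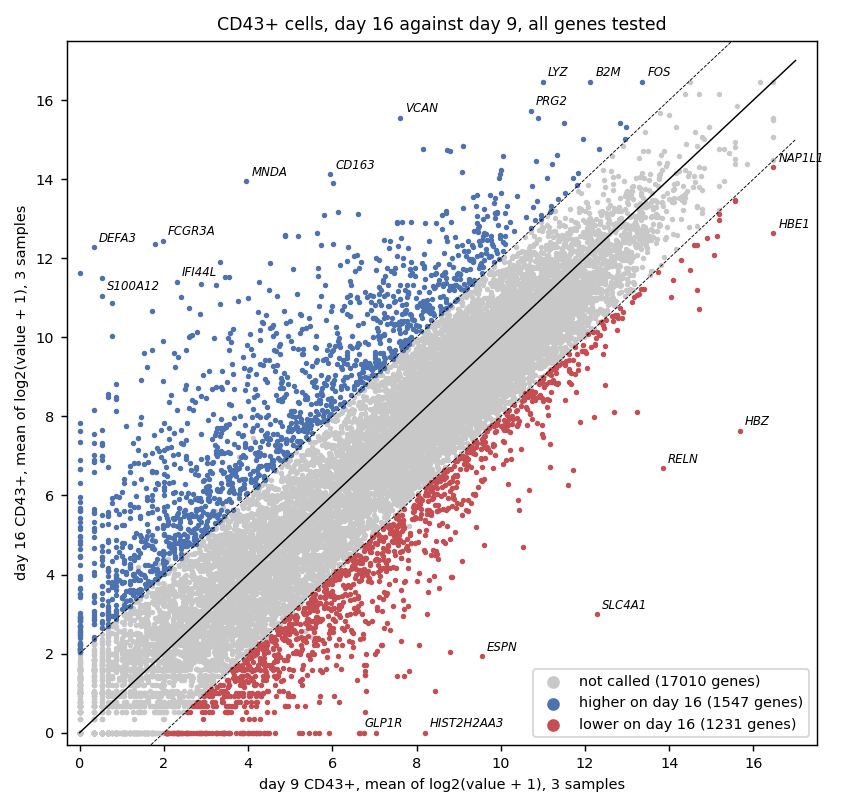
Mean of log2(value + 1) over 3 samples on day 9 (x axis) and on day 16 (y axis) in CD43+ cells, for each of 19788 genes tested. The solid line marks equal values and the dashed lines a 4-fold change. The 1547 genes called higher are blue, the 1231 called lower red, and the granule and phagocyte genes lie far above the line while HBZ, SLC4A1, RELN and ESPN lie far below it.

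Red cell genes were among the largest falls. Of 10 haemoglobin genes, 8 fell and none rose (median log2 fold change -2.94, against -0.12 over all genes). HBZ, the embryonic alpha-like globin (ENSG00000130656, chromosome 16, 152687 to 154503, GRCh38), stood at 90700, 17338 and 90700 on day 9 and at 163, 158 and 302 on day 16. It was thus among the genes at the highest value in 2 of the day 9 samples, and its log2 fold change was -8.04 ± 0.85 (SE, adjusted p = 6.42e-09). HBE1, the embryonic beta-like globin, stood at 90700 in all 3 samples of day 9 and fell to 7780, 8977 and 3658, a log2 fold change of -3.84 ± 0.67 (adjusted p = 1.96e-05). HBM, an alpha-like globin gene, fell from 499, 330 and 523 to 1, 6 and 4. HBA2, which encodes adult and foetal alpha globin, fell from 11498, 6812 and 11498 to 258, 342 and 232. Its near-identical copy HBA1 went from 29000, 20394 and 29000 to 2426, 3342 and 1560, and since reads may be split between the copies their separate values are uncertain. The same holds for the foetal gamma globins: HBG1 went from 314, 268 and 344 to 64, 94 and 30, and HBG2 from 90700, 48030 and 48030 to 22812, 37166 and 11498, which did not pass the test (log2 fold change -1.47 ± 0.93, adjusted p = 0.183). HBB, the adult beta globin, stood at only 42, 27 and 22 on day 9 and at 8, 6 and 6 on day 16 (log2 fold change -1.99, just short of 4-fold). The standard error is shared over all 11 populations of the series. The 8 calls became 4 without replicate 3 of day 16 and 5 without replicate 1 of day 9; HBA1 (adjusted p = 0.082 without replicate 3 of day 16) and HBG1 (adjusted p = 0.0512 without it) were among those lost.

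In CD43- cells the haemoglobin genes moved the other way. Their median log2 fold change was 2.14, and 6 of 10 rose. HBZ stood at 244, 144 and 131 on day 9 and at 632, 416 and 1448 on day 16 in CD43- cells, so that on day 16 its values in CD43- cells were all above those in CD43+ cells. The difference of the changes was called in 9 of the 10 genes, -10.15 on the log2 scale for HBZ and -6.61 for HBE1.

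Red cell membrane and haem genes fell as well. Of 30 erythroid genes, 11 fell and none rose (median log2 fold change -1.32), and of 11 genes of haem biosynthesis 3 fell and none rose (median -1.55). SLC4A1, the band 3 anion exchanger of the red cell membrane (ENSG00000004939, chromosome 17, 44248385 to 44268141), had the largest fall among coding genes, from 8272, 1686 and 8797 to 6, 3 and 17 (log2 fold change -9.29 ± 0.68, adjusted p = 9.16e-12). AHSP, the chaperone of free alpha globin, fell from 486, 204 and 281 to 2, 12 and 12. CA1, a carbonic anhydrase of red cells, fell from 226, 155 and 258 to 4, 0 and 3. ALAS2, the erythroid enzyme of the first step of haem synthesis, fell from 8671, 4234 and 7764 to 317, 324 and 198 (log2 fold change -4.59 ± 0.51, adjusted p = 1.51e-08). Its housekeeping counterpart ALAS1 stood at 612, 708 and 722 on day 9 and at 2636, 2196 and 2441 on day 16, so the ubiquitous and the erythroid enzyme had log2 fold changes of opposite sign (1.83 for ALAS1, adjusted p = 9.18e-13, short of 4-fold). KLF1, the master activator of erythroid genes, fell from 2612, 1828 and 2074 to 486, 526 and 350, a smaller log2 fold change of -2.26 ± 0.44. The erythropoietin receptor EPOR stood at 1387, 902 and 1183 and then at 754, 846 and 782, a log2 fold change of -0.52.

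The fall was uneven within the list. HEMGN, RHD, RHCE, KEL, DMTN, CA2, TRIM58 and NFE2 had log2 fold changes between -0.45 and 0.63, and none of them was called. In CD43- cells 9 of the 30 erythroid genes rose and none fell, and the difference of the changes was negative and called in 21 of 30. The level of the 30 genes summed was 52719 to 81042 over the day 9 CD43+ samples, 22591 to 33417 over the day 16 CD43+ samples, and in CD43- cells 5536 to 7740 on day 9 and 13257 to 15052 on day 16.

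Promoter stretches are given for 3 erythroid genes that fell and were picked as holding AGATAA. The GATA factors bind this sequence and its relatives in many red cell genes, and their part in these falls was not tested. The stretches are RefSeq sequence of GRCh38.p14, read 5′ to 3′ on the strand of the gene, with each AGATAA (on either strand) in capitals. EPB42 (a protein of the red cell membrane skeleton, chr15:43221034-43221266, minus strand), SPTB (beta spectrin, chr14:64879908-64879989, minus strand) and GYPB (glycophorin B, chr4:144019346-144019424, minus strand) had log2 fold changes of -3.89, -3.11 and -4.45.
EPB42: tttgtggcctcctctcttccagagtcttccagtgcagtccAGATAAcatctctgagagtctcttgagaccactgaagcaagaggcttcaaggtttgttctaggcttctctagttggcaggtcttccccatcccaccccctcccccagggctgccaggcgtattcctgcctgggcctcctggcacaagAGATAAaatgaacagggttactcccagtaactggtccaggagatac
SPTB: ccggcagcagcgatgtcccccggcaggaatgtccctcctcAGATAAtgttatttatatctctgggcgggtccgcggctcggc
GYPB: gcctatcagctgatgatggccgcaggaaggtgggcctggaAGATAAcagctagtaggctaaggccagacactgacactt
Of the 30 erythroid genes, 19 were matched to a stretch, and 9 of them (47.4%) held AGATAA on either strand in the 250 bases before the RefSeq start site, against 11.1% of 27305 RefSeq genes. It was present in 4 of the 5 matched genes that fell and in 5 of the 14 that were not called. Lists that rose held it too, with 4 of 14 phagocyte receptor and oxidase genes (28.6%) and 5 of 25 interferon-stimulated genes (20%). Among neutrophil maturation genes 3 of 19 held it (15.8%), and among macrophage genes 1 of 22 (4.55%). A match is a description of these letters and not a bound site.

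**Figure D2:**
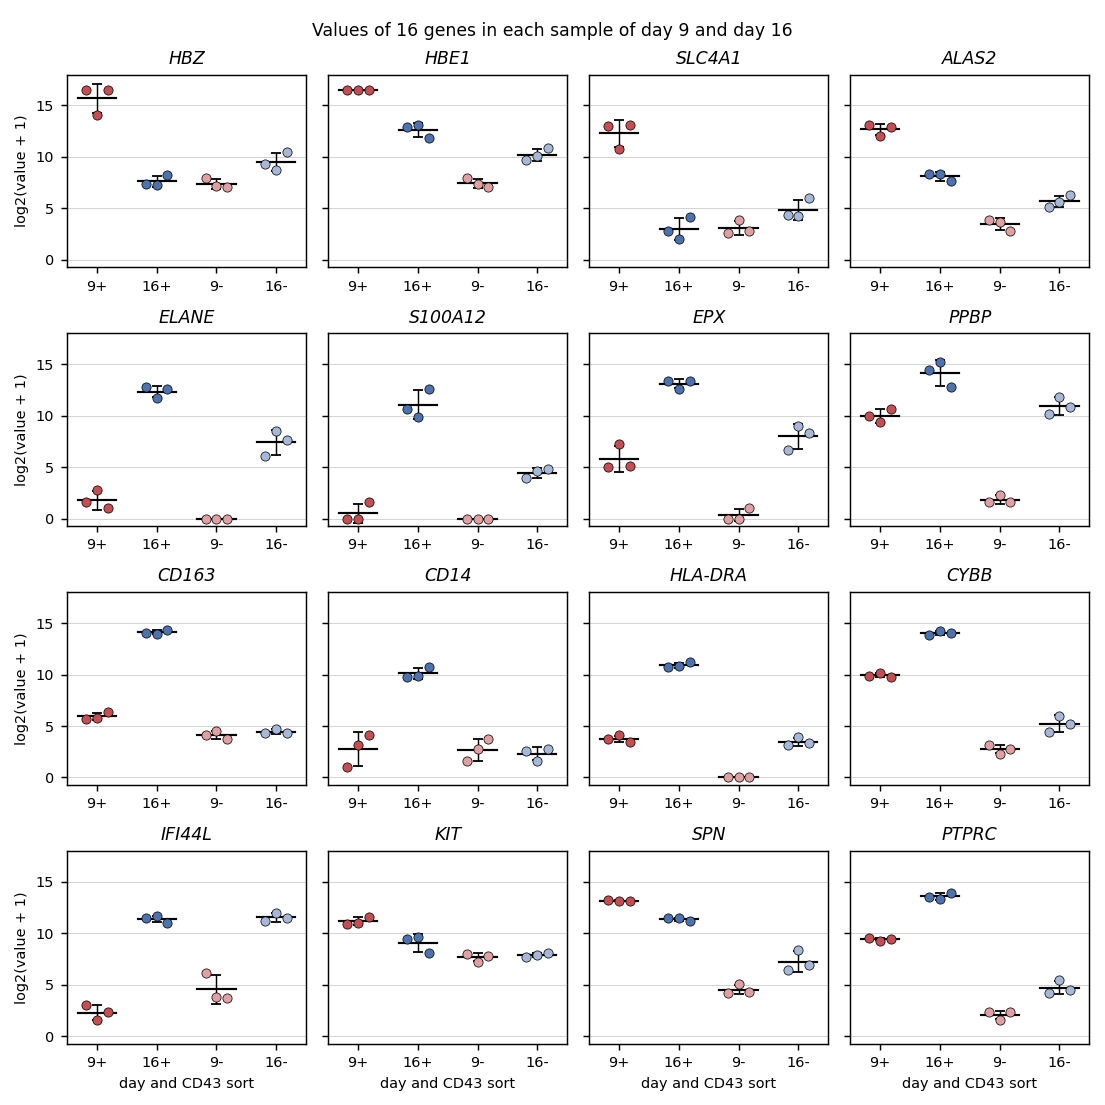
log2(value + 1) of 16 genes in each of 12 samples, by day (9 or 16) and by the CD43 sort (+ or -). Each point is a sample, the horizontal bar the mean and the whisker the SD of 3 samples. HBZ, HBE1, SLC4A1 and ALAS2 lie lower on day 16 in CD43+ cells, the granule and phagocyte genes lie higher, and IFI44L lies higher on day 16 in both populations.

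None of the 10 haematopoietic transcription factors was called (median log2 fold change -0.17), and the difference from the change in CD43- cells was negative and called in 3 of them. GATA1, the erythroid and megakaryocytic factor, stood at 3858, 3487 and 3720 on day 9 and at 1582, 2210 and 870 on day 16 (log2 fold change -1.35 ± 0.62, adjusted p = 0.0652). SPI1 (PU.1), the myeloid factor, stood at 2095, 2194 and 2264 and then at 8050, 6442 and 7746 (log2 fold change 1.76 ± 0.90, adjusted p = 0.0982). The 2 groups of 3 values did not overlap for either gene, as was so in 65.3% of all genes tested. RUNX1, needed for blood to form from endothelium, had values of 5186, 5549 and 5029 and then of 6575, 5396 and 6688 (log2 fold change 0.24), and TAL1, a factor of the earliest blood progenitors, had a log2 fold change of -1.03.

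Myeloid transcription factors, on the other hand, rose in 9 of 19 cases and fell in none (median log2 fold change 1.98). MAF, a factor of macrophages, rose from 151, 204 and 146 to 5126, 5779 and 5635 (log2 fold change 5.05 ± 0.36, adjusted p = 4.08e-12). EGR2, which acts downstream of macrophage growth signals, rose from 85, 390 and 116 to 3748, 2754 and 3888 and fell in CD43- cells by 2.10 on the log2 scale. IRF5, a factor of inflammatory gene induction in phagocytes, rose from 194, 223 and 170 to 1849, 2048 and 2076. CEBPA, which drives the first steps of granulocyte formation, had a log2 fold change of 1.04, and CEBPE, which acts in late granule formation, one of 1.98, both short of 4-fold.

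Granule proteases and defensins of neutrophils rose most. Of 13 primary granule genes 12 rose, and their median log2 fold change of 6.55 was the largest of the 33 lists. ELANE, neutrophil elastase (ENSG00000197561, chromosome 19, 851014 to 856247), stood at 2, 6 and 1 on day 9 and at 6912, 3298 and 6242 on day 16 (log2 fold change 10.55 ± 0.55, adjusted p = 2.01e-14). AZU1, azurocidin, rose from 390, 552 and 400 to 37166, 20394 and 25836, and PRTN3, proteinase 3, from 697, 1677 and 1010 to 29015, 17356 and 29015. The alpha-defensin genes DEFA1, DEFA1B and DEFA3, nearly identical copies whose separate values are uncertain, were between 0 and 2 on day 9 and between 1213 and 10430 on day 16. LYZ, lysozyme, rose from 1851, 1960 and 2340 to the highest value, 90700, in all 3 samples. MPO, myeloperoxidase, already stood at 29015, 20412 and 20412 on day 9 and reached 90700 in all 3 samples of day 16. As a value cannot exceed 90700, its log2 fold change of 1.98 is bounded by that ceiling. Its adjusted p of 0.0947 (limma) rests on a spread shared by all 11 populations.

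Genes of later neutrophil maturation rose in 18 of 21 cases (median log2 fold change 4.40). S100A12, a calgranulin, was listed at 0, 0 and 2 on day 9 and stood at 1600, 943 and 6256 on day 16. OLFM4, a protein of specific granules, rose from 2, 3 and 4 to 938, 322 and 2913, and LTF, lactoferrin of the same granules, from 10, 6 and 10 to 396, 134 and 1454. Replicate 2 was the lowest of the day 16 samples in 17 of 21 of these genes and replicate 3 the highest in 20. The days did not overlap in S100A12, OLFM4 or LTF, as was so in 65.3% of all genes tested. CAMP, the cathelicidin of specific granules, rose from 2 in each sample to 12, 16 and 93. MMP9, a protease of gelatinase granules, did not pass the test, with 546, 1140 and 894 on day 9 and 350, 280 and 778 on day 16.

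Eosinophil genes rose in all 10 cases (median log2 fold change 4.95). EPX, eosinophil peroxidase, rose from 32, 148 and 34 to 10397, 6121 and 10397, a log2 fold change of 7.29 ± 0.88 (adjusted p = 6.65e-08). PRG2, the major basic protein, rose from 1378, 3460 and 989 to 90700, 37190 and 48061, and CLC, the protein of Charcot-Leyden crystals, from 214, 404 and 142 to 3205, 1934 and 6244. IL5RA, the receptor subunit for the eosinophil growth factor IL-5, rose from 38, 84 and 24 to 1888, 1215 and 1292. Of 13 mast cell and basophil genes 6 rose and 1 fell. The tryptase genes TPSAB1 and TPSB2, which are close copies, were between 0 and 5 on day 9 and between 214 and 492 on day 16, while FCER1A, the alpha chain of the IgE receptor, stayed at 14, 8 and 20 and then 18, 13 and 18. KIT, the receptor for stem cell factor, fell from 1991, 2064 and 3108 to 704, 786 and 264 (log2 fold change -2.15 ± 0.37). This fall was short of 4-fold without replicate 3 of day 9 (-1.94) or replicate 3 of day 16 (-1.65) and with median-of-ratios scaling (-1.96).

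Macrophage genes rose in 25 of 29 cases and fell in none (median log2 fold change 5.74). CD163, the scavenger receptor for haemoglobin and haptoglobin (ENSG00000177575, chromosome 12, 7470813 to 7503893), stood at 51, 54 and 80 on day 9 and at 17368, 15868 and 20424 on day 16 (log2 fold change 8.18 ± 0.72, adjusted p = 2.54e-10). CD14, a co-receptor for bacterial lipopolysaccharide, rose from 1, 8 and 17 to 896, 906 and 1742, and the complement gene C1QA from 10, 56 and 18 to 3540, 3034 and 4844. The mannose receptor MRC1 rose from 128, 256 and 103 to 5644, 5045 and 6256, and the receptor for phosphatidylserine TIMD4 from 2, 5 and 1 to 866, 982 and 628. The days did not overlap in any of these genes, as was so in 65.3% of all genes tested. CSF1R, the receptor for macrophage colony-stimulating factor, was already at 2865, 2510 and 2399 on day 9 and rose to 25862, 25862 and 22836. TREM2, a receptor of tissue macrophages, did not follow, with 316, 242 and 338 on day 9 and 357, 361 and 462 on day 16 (log2 fold change 0.40 ± 0.73, adjusted p = 0.666). MERTK (1.47), AIF1 (1.38) and CD209 (1.72) were the other members without a call, with their log2 fold changes in brackets.

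Receptors and enzymes of phagocytosis rose with them, in 16 of 20 cases (median log2 fold change 3.43). FCGR3A and FCGR3B, the closely related genes of CD16, went from between 0 and 4 on day 9 to between 1035 and 8794 on day 16. The integrin ITGAM (CD11b) rose from 196, 154 and 124 to 1332, 808 and 2894, and the beta-glucan receptor CLEC7A from 96, 88 and 92 to 2866, 2679 and 4545. CYBB, the catalytic subunit of the phagocyte oxidase, rose from 950, 1154 and 888 to 14685, 18772 and 17368. Its partner CYBA, which other oxidases share, had a log2 fold change of 0.44. Of 25 lysosomal genes 8 rose (median log2 fold change 1.68). CTSS, the cathepsin that trims the class II invariant chain, rose from 62, 82 and 51 to 10085, 9501 and 37190, and CTSB from 2852, 2870 and 2940 to 47984, 47984 and 37130. LAMP1 and CD63, membrane proteins of most lysosomes, had log2 fold changes of -0.18 and -0.03.

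Antigen presentation genes rose in both classes. Of 12 class II genes 10 rose (median log2 fold change 3.36). HLA-DRA went from 12, 16 and 10 to 1684, 1828 and 2322, the invariant chain gene CD74 from 896, 1018 and 880 to 8780, 9460 and 8780, and their activator CIITA from 70, 94 and 78 to 589, 618 and 730. HLA-DPB1 stayed at 350, 422 and 292 and then 317, 345 and 286. Of 14 class I genes 9 rose (median 2.23). HLA-B rose from 516, 546 and 556 to 15842, 17338 and 22812, with a log2 fold change of 5.09 ± 0.18 (adjusted p = 2.84e-17), and B2M, the light chain of class I molecules, from 4368, 4775 and 4186 to 90700 in all 3 samples. HLA genes are similar to each other and vary between people, so their separate values depend on how reads were assigned. In CD43- cells 6 of the 14 class I genes rose (median 1.88), and the difference of the changes was not called in 12. Of the 12 class II genes 3 rose and 1 fell there (median 0.98), and the difference was called higher in 7.

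Pattern receptors and cytokines followed. Of 18 genes of toll-like receptors and their adaptors, 11 rose and 1 fell. TLR2, a receptor for bacterial lipoproteins, rose from 25, 32 and 28 to 6072, 4790 and 7780, and TLR8, a receptor for single-stranded RNA, from 2, 2 and 3 to 1497, 1364 and 2124. TLR4, the lipopolysaccharide receptor, rose from 126, 144 and 140 to 2068, 1584 and 3192. TLR3, the endosomal receptor for double-stranded RNA, was the gene that fell, from 6, 12 and 13 to 0, 0 and 6. Of 22 inflammatory cytokine genes 15 rose and none fell (median log2 fold change 2.72). IL1B rose from 242, 247 and 178 to 1821, 2185 and 2585, TNF from 6, 14 and 4 to 326, 453 and 292, and the neutrophil attractant CXCL8 from 209, 262 and 153 to 2918, 1867 and 8800. The anti-inflammatory IL10 rose as well, from 0, 10 and 4 to 187, 158 and 272. CCL2, the attractant of monocytes, did not pass the test (28, 85 and 54, then 64, 48 and 168).

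**Figure D3:**
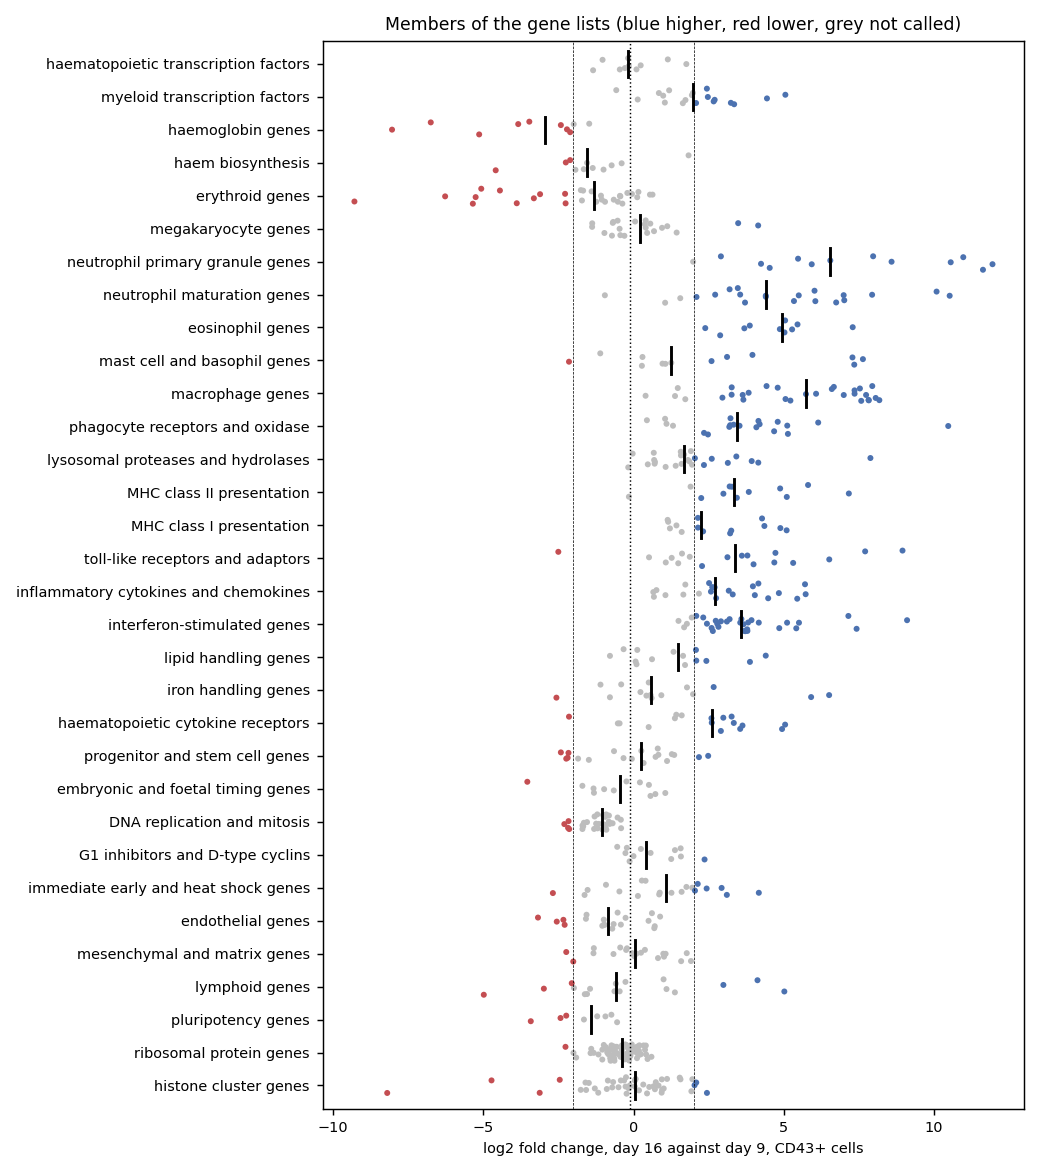
log2 fold change from day 9 to day 16 in CD43+ cells (x axis) of the members of 32 gene lists (y axis). Each point is a gene, blue where called higher, red where called lower and grey where not called. Black bars mark the median of each list, the dotted line the median of all genes tested (-0.12) and the dashed lines a 4-fold change. The granule, eosinophil and macrophage lists have their medians between 4.40 and 6.55, and the haemoglobin list at -2.94.

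Many of these lists rose in CD43- cells as well. The 13 primary granule genes all rose in CD43- cells (median log2 fold change 5.99), and 15 of 22 megakaryocyte genes did so. Phagocyte receptor and oxidase genes rose there in 16 of 20 cases (median 2.60), with the difference of the changes called higher in 3 and lower in 2. Eosinophil genes rose there in 7 of 10 cases (median 4.67), and 6 of the 10 differences were not called. Of 21 neutrophil maturation genes 11 rose there (median 2.25), with the difference of the changes called higher in 10 and lower in 2. MPO went there from 32, 46 and 28 to 4657, 12840 and 8970, ELANE from 0 in each sample to 68, 354 and 200, and the platelet chemokine gene PF4 from 10, 17 and 10 to 1062, 3224 and 1582. Replicate 2 was the highest day 16 CD43- sample for each of these 3 genes. By contrast, CD163 was at 16, 22 and 12 and then at 19, 26 and 19, and CD14 at 2, 6 and 12 and then at 5, 2 and 6. Of the 29 macrophage genes 9 rose in CD43- cells (median 1.55), and the change was larger in CD43+ cells, by the test of the difference, in 18. These blood transcripts in CD43- cells move with the CD43- comparison, and their part in it was not tested.

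**Figure D4:**
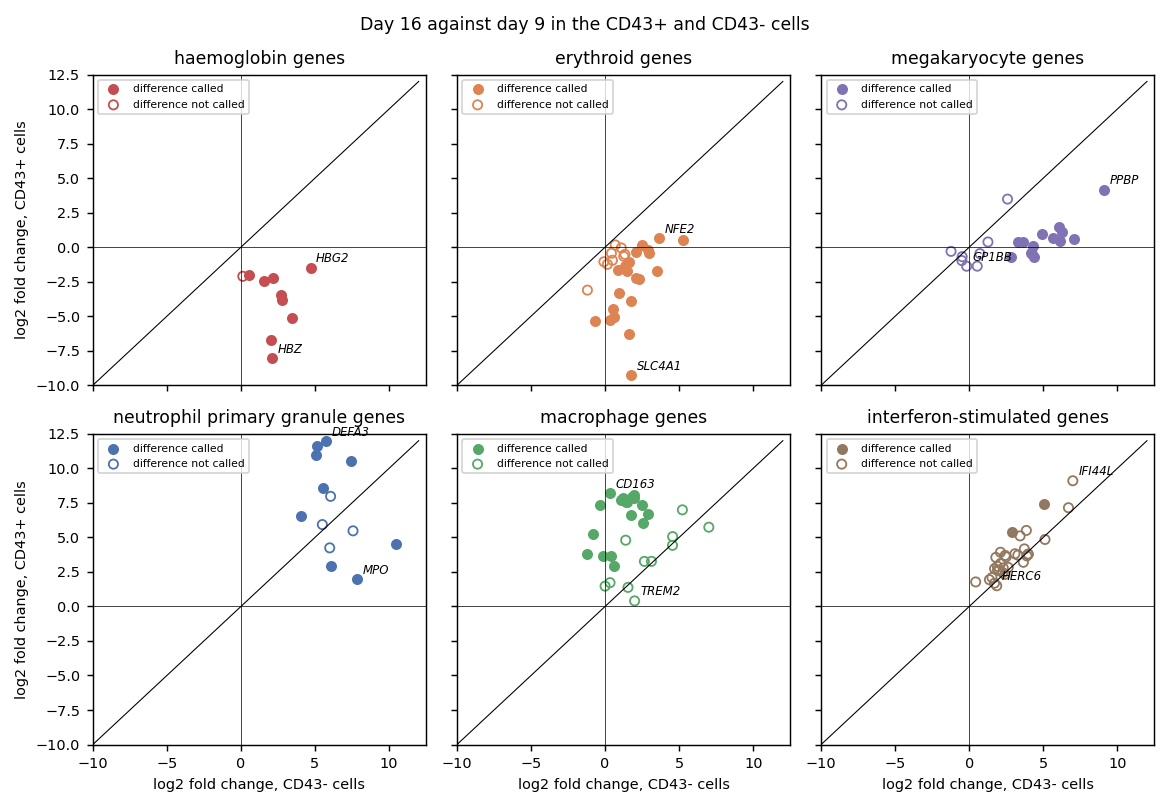
log2 fold change from day 9 to day 16 in CD43- cells (x axis) and in CD43+ cells (y axis) for the members of 6 gene lists, with the line of equal change. Filled points are genes whose difference of the changes was called (adjusted p below 0.05 and above 4-fold). The interferon-stimulated genes have positive medians on both axes (3.57 in CD43+ and 2.46 in CD43- cells). Most haemoglobin genes lie below 0 on the y axis only, and most macrophage genes lie high on the y axis alone.

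Megakaryocyte genes were mostly not called and spread widely between day 16 samples. Of 22, 2 rose and none fell (median log2 fold change 0.21), against 7.82% and 6.22% of all genes tested. ITGA2B (CD41) stood at 13319, 17356 and 15858 on day 9 and at 10436, 12840 and 6140 on day 16, and PF4 at 6818, 5906 and 7330 and then at 10832, 15858 and 5482. The 2 that rose were PPBP, a chemokine of platelet alpha granules (999, 652 and 1616, then 22818, 37170 and 6913), and the platelet receptor gene CLEC1B (174, 187 and 284, then 2692, 4480 and 1080). Replicate 2 was the highest day 16 sample in 21 of the 22 genes and replicate 3 the lowest in all 22, so the summed level of the list ran from 70805 to 270028 over the day 16 samples against 170962 to 191554 on day 9.

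Interferon-stimulated genes rose in both populations. In CD43+ cells 28 of 32 rose (median log2 fold change 3.57), and in CD43- cells 23 of 32 (median 2.46). All 23 were also among the 28. The difference of the changes was called in 2 of the 32, RSAD2 and SAMD9L, both with a larger rise in CD43+ cells. For the other genes this does not show that the changes were alike. IFI44L (ENSG00000137959, chromosome 1, 78619922 to 78646145) stood at 7, 2 and 4 on day 9 and at 2882, 3262 and 2110 on day 16 in CD43+ cells, and at 71, 13 and 12 and then at 2329, 4080 and 2848 in CD43- cells. MX1, a GTPase that blocks influenza and other viruses, rose from 427, 418 and 414 to 5641, 6250 and 4786, and IFI6, an interferon-induced membrane protein, from 908, 1043 and 854 to 12854, 12854 and 9902. ISG15, a ubiquitin-like modifier, stood at 990, 1084 and 956 and then at 3244, 3754 and 2792, short of 4-fold (log2 fold change 1.68). Replicate 3 was the lowest day 16 CD43+ sample in 28 of the 32 genes. The methods name 2 sequencing companies without saying which sample went to which, so day and company cannot be told apart in either population.

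The interferon-stimulated response element is bound by transcription factors that interferon signalling activates, and its core was searched as GAAA, any 2 bases and GAAA again on both strands of the 250 bases before the RefSeq start site. It was present in 17 of 25 matched interferon-stimulated genes (68%), in 6 of 11 matched class I genes (54.5%) and in 3.71% of 27305 RefSeq genes. Within the list it was present in 15 of the 21 matched genes that rose and in 2 of the 4 that were not called. Among phagocyte receptor and oxidase genes 4 of 14 held it (28.6%), among macrophage genes 2 of 22 and among neutrophil maturation genes 2 of 19. A match in these 250 bases is a description, and the absence of a match says only that these letters are not there. The stretches of 3 genes with large rises, picked as holding a match, follow, with that core or its reverse complement in capitals. They are RefSeq sequence of GRCh38.p14 on the plus strand, at chr1:78620244-78620424 for IFI44L, chr10:89392467-89392569 for IFIT1 and chr2:6877592-6877681 for RSAD2. The start sites are those of RefSeq and can differ from the gene starts in the files, so that in the files' annotation the stretches of IFI44L, RSAD2 and EPB42 lie inside the gene and that of IFIT1 lies partly inside.
IFI44L: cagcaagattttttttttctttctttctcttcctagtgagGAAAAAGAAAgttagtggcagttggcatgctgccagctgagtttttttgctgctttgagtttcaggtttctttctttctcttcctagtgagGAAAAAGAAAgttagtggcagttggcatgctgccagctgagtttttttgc
IFIT1: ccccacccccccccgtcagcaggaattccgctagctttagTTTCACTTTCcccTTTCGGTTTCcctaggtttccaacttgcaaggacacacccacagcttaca
RSAD2: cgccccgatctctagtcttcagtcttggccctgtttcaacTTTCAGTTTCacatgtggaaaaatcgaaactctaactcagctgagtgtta
IFI44L and IFIT1 held 2 copies each and RSAD2 held 1. IFIT1 (an inhibitor of viral RNA translation) rose from 160, 164 and 144 to 2278, 2380 and 1968, and RSAD2 (viperin) from 16, 8 and 12 to 541, 636 and 446. In CD43- cells RSAD2 went from 1, 4 and 0 to 12, 19 and 14.

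Iron, lipid and growth factor receptor genes changed in part. SLC11A1, the iron and manganese exporter of phagosomes, rose from 88, 101 and 104 to 8970, 8080 and 9894, and HMOX1, the enzyme of haem breakdown, from 574, 770 and 542 to 4082, 3688 and 4082. STEAP3, the ferrireductase of erythroid iron uptake, fell from 1128, 698 and 960 to 134, 160 and 167. The iron exporter gene SLC40A1 had a log2 fold change of 0.50. In all 3 of 15 iron genes rose and 1 fell, against 7.82% and 6.22% of all genes tested. Of 14 lipid genes 5 rose, among them the cholesterol exporter ABCG1 (17, 17 and 32, then 488, 464 and 440) and the nuclear receptor PPARG (26, 28 and 36, then 528, 344 and 498), while APOE had a log2 fold change of 0.10. The count of 5 became 3 without replicate 2 of day 9 or replicate 3 of day 16. Of 17 cytokine receptor genes 10 rose and 1, KIT, fell. The GM-CSF receptor gene CSF2RA rose from 207, 230 and 230 to 2290, 2258 and 2205, and IL10RA from 473, 464 and 516 to 6144, 6012 and 5788. FLT3, a receptor of multipotent and dendritic progenitors, was listed at 0 in each day 9 sample and stood at 25, 30 and 35 on day 16.

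Of 19 progenitor and stem cell genes 2 rose, 4 fell and 13 were not called (median log2 fold change 0.26). Of all genes tested, 7.82% rose and 6.22% fell. The change in the list was called more positive than in CD43- cells in 6 genes. CD34, a surface antigen of blood progenitors and endothelium, fell from 3324, 2636 and 3517 to 633, 680 and 467 (log2 fold change -2.42 ± 0.34, adjusted p = 8.11e-07). In CD43- cells CD34 had a log2 fold change of -0.04. MECOM, a factor of stem cells and endothelium, fell from 454, 244 and 482 to 85, 78 and 82, and ENG, a co-receptor of TGF-beta shared by endothelium and macrophages, rose from 546, 582 and 710 to 2778, 2639 and 2852. HOXA9, a factor of definitive progenitors, was at 1, 0 and 8 and then at 16, 4 and 36. It was called (log2 fold change 2.48) but not without replicate 2 of day 9 (1.79) or replicate 3 of day 16 (1.81). HLF, a factor of stem cells, was likewise called (log2 fold change -2.17), with 14, 16 and 22 on day 9 and 4, 0 and 12 on day 16. Leaving out replicate 3 of day 16 kept the HLF call, and leaving out any other of the 6 samples lost it (-1.16 without replicate 2 of day 16). LIN28A, an RNA-binding protein of embryonic and foetal cells, fell from 1959, 2210 and 2034 to 186, 398 and 75, and it fell in CD43- cells also (log2 fold change -2.45). LIN28B had a log2 fold change of -1.70, and IGF2BP3, an RNA-binding protein of the same stages, of 0.21.

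Replication genes had a negative median change, and few of them passed the 4-fold limit. Of 31 genes of DNA replication and mitosis, 4 fell and none rose, while 6.22% of all genes tested fell. The list had a median log2 fold change of -1.04, against -0.12 over all genes, and in CD43- cells 7 fell (median -1.71). The summed level of the list was 104008 to 106459 on day 9 and 40543 to 48243 on day 16. In CD43- cells it was 26329 to 45451 and then 9445 to 10888. The difference of the changes was called in none of the 31 by limma, and this does not show that the changes were alike. MCM2, a subunit of the replicative helicase, fell from 7494, 6704 and 7038 to 1316, 1357 and 1646, and MCM7 from 9860, 9460 and 9693 to 2076, 2106 and 2300. MKI67, the proliferation antigen, stood at 8794, 8497 and 8497 and then at 4032, 4425 and 4712 (log2 fold change -0.97). The 4 calls became 1 with median-of-ratios scaling, where MCM7 was at -1.97 and CDC6 at -1.99. Of 12 genes of G1 inhibitors and D-type cyclins, 1 rose and 11 were not called, while 7.82% of all genes tested rose. The gene that rose, CDKN1A, an inhibitor of cyclin-dependent kinases, went from 862, 1366 and 1020 to 5312, 5703 and 5406.

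Immediate early genes respond quickly to signals, and heat shock genes to protein stress. Of 20 genes of this list 6 rose and 1 fell (median log2 fold change 1.07), while in CD43- cells none rose and 4 fell. FOS went from 10059, 13287 and 8780 to 90700 in all 3 samples, EGR1 from 1218, 4241 and 2048 to 18763, 13319 and 18763, and IER3 from 34, 64 and 140 to 1130, 1068 and 1540. The gene that fell, HSPH1, is a heat shock protein (5196, 6143 and 5706, then 902, 824 and 921). Replicate 2 of day 9 was the highest day 9 sample in 19 of the 20 genes.

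Among called coding genes, the 5 largest losses in value were those of HBE1, HBZ, NAP1L1, NPM1 and HSP90AB1. NPM1, a nucleolar chaperone, fell from 48036 in each sample to 11500, 10824 and 11189, HSP90AB1, a cytosolic chaperone, from 48061 in each to 10844, 11512 and 11512, and the histone chaperone NAP1L1 from 90700 in each to 22842, 25870 and 14016. These falls were short of 4-fold with median-of-ratios scaling (log2 fold changes of -1.91, -1.90 and -1.97), and that of NAP1L1 also without replicate 3 of day 16 (-1.90). Of 76 ribosomal protein genes 1, RPS12, fell (25830, 22806 and 25830, then 5474, 4892 and 5120), against 6.22% of all genes tested. The median over the list was -0.38, and 2 genes passed the limits without replicate 2 or 3 of day 9 or replicate 1 or 2 of day 16. VCAN, a matrix proteoglycan also made by monocytes, had the fifth-largest gain in value among called coding genes, from 120, 118 and 516 to 48056 in each sample, with a log2 fold change of 7.94 ± 0.33 (adjusted p = 3.28e-16). MNDA, a nuclear antigen of myeloid cells, rose from 6, 34 and 14 to 15868, 13324 and 18772, and AQP9, a water and glycerol channel of leukocytes, from 0, 0 and 4 to 928, 574 and 2114.

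Other large falls lay outside the red cell lists. RELN, a secreted glycoprotein best known from neurons, fell from 48056, 6589 and 10084 to 108, 86 and 116, with a log2 fold change of -7.15 ± 0.60. In CD43- cells it stood at 2302, 12848 and 3138 and then at 7036, 7163 and 7036. ESPN, an actin-bundling protein of hair cell stereocilia, fell from 1004, 416 and 991 to 4, 10 and 0, and XIRP1, an actin-binding protein of striated muscle, from 225, 386 and 470 to 2, 2 and 0. GLP1R, the receptor for the incretin GLP-1, stood at 112, 82 and 106 and was listed at 0 in each day 16 sample, as was ACTL8, an actin-like gene (124, 95 and 104 on day 9). HIST2H2AA3, a histone H2A gene with near-identical copies, stood at 228, 353 and 310 and was listed at 0 in each day 16 sample of both populations, against 22, 108 and 124 in day 9 CD43- cells. Of the 45 histone genes tested, 3 rose and 4 fell, against 7.82% and 6.22% of all genes tested. Among non-coding genes the largest rises were LINC01127 (listed at 0 in each day 9 sample, then 188, 183 and 223) and CTB-61M7.2 (1, 0 and 0, then 104, 84 and 174). The largest falls among them were in antisense genes, whose reads cannot be told from those of their partners unless strand was used. RP11-521B24.5 (122, 137 and 131 on day 9) and RP11-360L9.8 (84, 110 and 110) were listed at 0 in each day 16 sample of both populations, and RP11-229P13.23 went from 288, 180 and 218 to 0, 0 and 24.

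Markers of other cell types were measured in the same samples. Of 20 endothelial genes 4 fell and none rose. PLVAP, a protein of endothelial diaphragms, fell from 2202, 1560 and 2350 to 242, 256 and 173, and CDH5, the endothelial cadherin, stood at 440, 457 and 584 and then at 233, 243 and 263 against 5198 to 12854 in CD43- cells. The summed level of the list was 22569 to 26793 on day 9, 16541 to 23014 on day 16 and 83644 to 141753 over all CD43- samples. Of 20 mesenchymal genes 2 fell, against 6.22% of all genes tested, and 1 did so without replicate 2 of day 9 or replicate 1 of day 16. COL3A1, a fibrillar collagen, stood at 1076, 2478 and 13324 and then at 9499, 6071 and 3349, against 90700 in each CD43- sample. Its day 9 and day 16 values overlapped. The summed mesenchymal level was 8672 to 32225 on day 9 and 17505 to 31477 on day 16, and 534122 to 736609 in CD43- cells.

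Of 17 lymphoid genes 3 rose and 3 fell, against 7.82% and 6.22% of all genes tested. CD3D, a chain of the T cell receptor complex, fell from 174, 106 and 166 to 10, 2 and 2, while IL7R, the interleukin 7 receptor, rose from 13, 16 and 16 to 468, 275 and 1061 and NKG7, a granule protein of cytotoxic cells, from 290, 336 and 320 to 5123, 4777 and 6812. CD79A, a B cell receptor chain, had a log2 fold change of -1.55. Of 8 pluripotency genes 3 fell. POU5F1 stood at 70, 50 and 83 and then at 40, 40 and 57, and NANOG at 4 in each sample and then at 8, 2 and 0. DNMT3B, a DNA methyltransferase that is high in pluripotent cells, fell from 4511, 3576 and 4481 to 913, 970 and 520.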

How the data were processed

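RNA was sequenced from 34 samples of H1 cells, and 12 samples of days 9 and 16 are described. Using bowtie2 and RSEM the authors assigned reads to Ensembl transcripts, and EDASeq corrected for GC content. The submitters' processing notes also list bcl2fastq and STAR, with hg38. The deposited values, tag counts after that GC correction and written as whole numbers, were treated as a normalized score and neither as raw counts nor CPM. The deposited GC percent was used only in checks: the median log2 fold change ranged from -0.15 to -0.05 over 10 GC bins. All values of a sample sum to 17856940, so depth is unknown and no counting error was computed. Of 20255 genes, 20148 IDs were in GENCODE v29, which gave gene types, and strand use is not given in the sources used here.

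The test was limma 3.58.1 (R 4.3.3), with lmFit and a trended eBayes on log2(value + 1), fitted once to the 33 samples of 11 populations, for 19788 genes with at least 10 in at least 3 samples. A call needed an adjusted p (Benjamini-Hochberg) below 0.05 and more than a 4-fold change. The change in CD43- cells and the difference of both changes were tested alike. In a simulation of 14189 genes, 196 of the 200 made to change were found with the correct sign, and 1 other gene was called. The changes put in were all well above 4-fold, genes with low means were left out, and the noise was drawn as normal. The simulation therefore does not show how calls perform near the 4-fold limit or for low genes.

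The comparison and the 33 gene lists were chosen with earlier results of these data known, and 11 list genes are not in the table analysed here. Named genes were, by rule, the 10 largest rises and falls without overlap and the 5 largest gains and losses in value among called coding genes, chosen members and up to 3 rises and 3 falls of each list, 3 non-coding rises and falls, and the 3 largest differences between the populations in each direction; 1 Y-linked non-coding gene that the rule picks and some other list genes are not reported here. Other genes were chosen after their values were seen, as were the promoter motifs. A PU.1 sequence, GAGGAAGT, was searched too and was present in 2.65% of 27305 RefSeq genes. It was present in 2 of 14 phagocyte receptor and oxidase genes, 1 of 22 macrophage genes and 1 of 19 neutrophil maturation genes. Alternatives were pseudocounts of 0.1 and 10, no filter, a minimum of 100, quantile and median-of-ratios normalization, a replicate block, robust variances, only the compared groups, a fold change above 2, coding genes only, each replicate left out, and, added after seeing the data, no day 12 samples. Tables and figures were made with Python 3.11.15, pandas 2.3.3 and matplotlib 3.10.9.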

Additional observations from a re-analysis of the deposited data

Results flagged for a closer look

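Of the 210 named genes, 111 had a called difference between the CD43+ and CD43- changes from day 9 to day 16 (limma's test of the difference). Of the genes named by rule, 14 are given here. They were among the 3 largest differences in each direction or had called changes of opposite sign in the 2 populations. Over all genes, 24 rose in CD43+ and fell in CD43- cells and 31 did the reverse. The difference, CD43+ minus CD43- on the log2 scale, was -11.04 for SLC4A1, -10.15 for HBZ, -9.20 for ESPN, -8.99 for ACTL8, -8.79 for HBM, -8.56 for HBA2, -6.80 for ALAS2, -6.61 for HBE1, -4.38 for HBD and -4.36 for KLF1, and 9.09 for CARD16, 8.52 for VCAN, 8.37 for IGF1 and 6.54 for EGR2. CARD16, an inhibitor of caspase 1, went from 3, 0 and 6 to 669, 516 and 648 in CD43+ cells and from 60, 160 and 30 to 22, 30 and 20 in CD43- cells. IGF1, a growth factor that macrophages also make, went from 1, 1 and 4 to 194, 215 and 260 in CD43+ cells, and from 94, 5 and 69 to 10, 4 and 10 in CD43- cells. VCAN stood at 29026, 20424 and 29026 and then at 18772, 14685 and 18772 in CD43- cells, where it did not pass the test, while it rose in CD43+ cells. In CD43- cells ESPN stood at 3, 6 and 4 and then at 16, 12 and 16, and SLC4A1 at 5, 14 and 6 and then at 19, 18 and 63, and neither was called there.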

How the results depend on the processing

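With a pseudocount of 10, the count for CD43+ cells was 1665 (1063 rises and 602 falls) against 2778, that for CD43- cells 789 against 1816, and that for the difference 1474 against 2307. With a fold change above 2 the counts were 6755, 5047 and 4749, and the split turned towards falls (3104 higher against 3651 lower for CD43+, 2445 against 2602 for CD43-, 2309 against 2440 for the difference). With a minimum of 100 the CD43- count was 1178. The minimum and the lower fold limit change the genes tested or the limit itself, and for the pseudocount, which shrinks the fold changes of low genes, no other cause was tested. The other settings stayed within 1.5 times. Among them, quantile normalization could change little, because the values sorted by size were already the same in every sample. Leaving out 1 replicate gave 2748 to 2842 calls in CD43+ cells, 1585 to 2173 in CD43- cells and 2110 to 2383 for the difference. The replicate block gave 2781, 1818 and 2313 calls. Same-numbered samples of days 9 and 16 did not deviate together (correlations of -0.015, 0.005 and -0.028 across genes, and 0 of 3 day 9 samples correlated best with their own number), so the numbers were not taken as pairs. No named gene called in CD43+ cells reversed its direction under any alternative run. Of these 160 genes, 130 were called under each alternative in which they were tested. The minimum of 100 kept 196 of the 210 named genes, and the coding-only run kept 204. Depth cannot be judged from these values, and genes at 90700 have changes bounded by that ceiling.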
